A study of Mus musculus with 86 samples.

Results

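The comparison described here asks what the MERTK inhibitor UNC569 did to gene expression in mouse livers injured by bile duct ligation (BDL). It sets 4 libraries from ligated livers of wild-type mice injected with UNC569 against 6 libraries from ligated livers of wild-type mice given the vehicle dimethyl sulfoxide (DMSO), 10 of the 86 samples of the series. Members were chosen by column name in the deposited liver table, whose columns are numbered from 0 within each group, so the libraries are called DMSO 0 to 5 and UNC569 0 to 3. The labels list 6 ligated livers with UNC569, and only 4 columns carry that group's name, so 4 were used. Sham-operated wild-type livers, 3 with DMSO and 3 with UNC569, stood in the same table and entered the same fit. All 4 groups shared the wild-type genotype, and strain, sex, age, dose and the days between surgery and collection are not given in the labels used here. Since nothing in the labels ties a column to one animal, p-values measure the spread between these libraries. Values are FPKM (fragments scaled to transcript length and to the mapped total of the library), and differences are on the log2(FPKM + 1) scale, UNC569 minus DMSO, with p-values from limma adjusted over all genes by the Benjamini-Hochberg method.

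MERTK is a receptor tyrosine kinase of the TAM family, named for its members Tyro3, Axl and Mertk. Its ligands Gas6 and protein S bridge the receptor to phosphatidylserine on dying cells, and macrophages use it to engulf those cells, a process called efferocytosis. UNC569 is a small molecule that blocks the MERTK kinase, and less potently those of Axl and Tyro3. Ligation of the common bile duct dams bile in the liver, where bile duct cells multiply, macrophages and neutrophils gather, and stellate cells turn into myofibroblasts that lay down collagen.

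The libraries carried a liver profile, with Alb, the hepatocyte gene for albumin, between 4677 and 11943 FPKM in the 10 ligated libraries. The FPKM sum was lowest in DMSO 4, at 449080, and ran from 561956 to 777048 in the other 15 liver libraries. DMSO 2 and UNC569 2 stood apart from their groups: their median rank correlation with the other libraries of the group was 0.881 and 0.911, against 0.921 to 0.962 for the other ligated libraries. Y-linked transcripts were read in all 16 libraries and Xist stayed at or below 0.0769 FPKM. FPKM tables hold no read numbers, so the depth behind each value is unknown.

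Of 12986 genes tested, 41 passed an adjusted p of 0.05, with 16 higher (0.123% of genes) and 25 lower (0.193%) in the UNC569 libraries. In each of the 41 the libraries of one group lay entirely above those of the other. The smallest fall was -0.79 and the rises ran from 0.92 to 2.01, while the median gene differed by 0.09. Among the 25 genes that fell, 20 had a higher mean in ligated than in sham liver with DMSO, and 15 had a UNC569 mean below that of sham liver with DMSO. All 16 genes that rose had a UNC569 mean above sham liver with DMSO. Picking genes by the ligated difference favours such positions. At an unadjusted p under 0.05, 816 genes were higher (6.28%) and 638 lower (4.91%), and the 2 groups did not overlap in 197 genes with higher UNC569 values (1.52%) and 127 with lower ones (0.978%). These 6 percentages are the backgrounds for the counts below of list members that passed, reached that unadjusted p or were separated. No background over all genes was counted for positions relative to sham liver. The smallest adjusted p was 0.0272, so the calls lay close to the threshold.

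How many genes passed depended on single libraries. Leaving out UNC569 0, UNC569 1 or UNC569 3 in turn left 0 genes past the threshold, with smallest adjusted p-values of 0.09997, 0.0744 and 0.0754. Leaving out UNC569 2 raised the calls to 69 higher and 74 lower, which include 39 of the 41 genes. Of the DMSO libraries, leaving out DMSO 4 left 1 higher and 1 lower, and leaving out DMSO 3 gave 49 and 67. The counts were 9 and 13 without DMSO 0, 8 and 8 without DMSO 1, 8 and 18 without DMSO 2, and 7 and 5 without DMSO 5. Each of the 41 genes kept its direction and an unadjusted p under 0.05 without any 1 of the 10 libraries. With separated groups the direction could not change. Genes picked for a small p in the same libraries tend to keep it, so this adds no independent support. A fit of the 2 ligated groups alone called 0 genes, with a smallest adjusted p of 0.0665. Scaling the libraries by the median of ratios gave 10 higher and 26 lower, a share of 27.8% higher against 39.02% in the table as deposited.

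**Figure D1:**
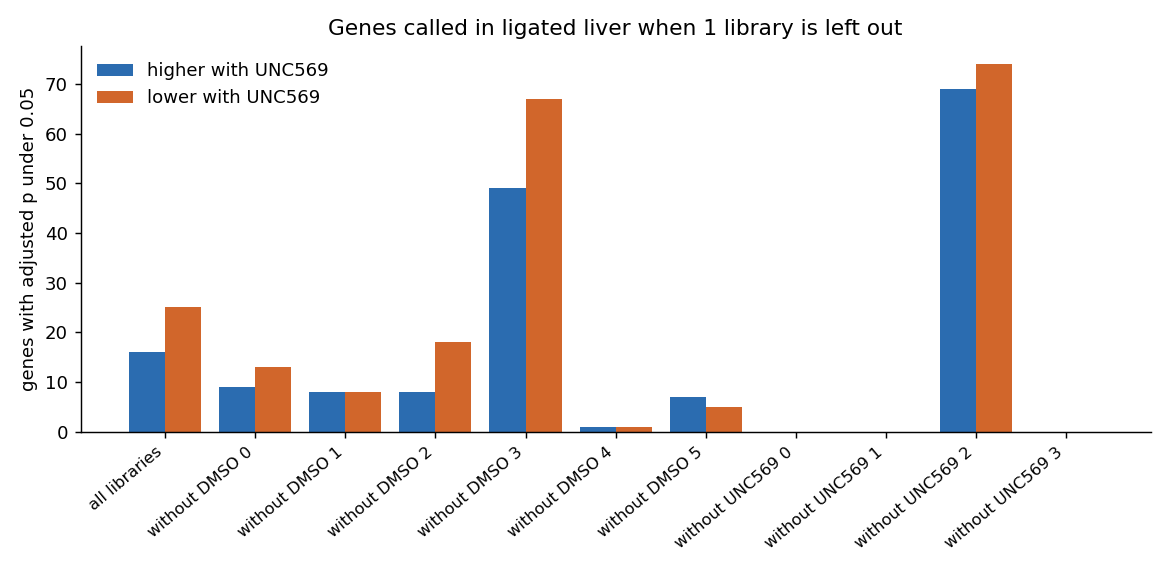
Number of genes past an adjusted p of 0.05 in ligated liver, higher and lower with UNC569, with all 10 libraries and with each ligated library left out in turn. The count is 0 without UNC569 0, 1 or 3 and highest without UNC569 2, at 69 higher and 74 lower.

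Of the inhibitor's target family and its ligands, 4 genes could be tested and 0 passed, with 1 (Axl) lower at an unadjusted p under 0.05. Mertk (ENSMUSG00000014361, chr2:128698956-128802894 in GRCm38) was 6.80, 7.18, 9.25, 7.82, 8.09 and 9.14 FPKM in DMSO libraries 0 to 5 and 6.28, 5.49, 7.21 and 8.50 FPKM in UNC569 libraries 0 to 3. The groups overlapped and did not pass the test (log2 difference -0.21 ± 0.18 (SE), adjusted p = 0.697). Axl was 12, 11, 13.6, 8.96, 17.8 and 12.3 FPKM in DMSO libraries 0 to 5 and 4.65, 5.80, 9.61 and 4.94 FPKM in UNC569 libraries 0 to 3, and only UNC569 2 reached into the DMSO range (log2 difference -0.93 ± 0.24 (SE), adjusted p = 0.124). The ligand Gas6 had a log2 difference of -0.09 (adjusted p = 0.961), and Pros1, which encodes protein S, one of 0.44 (adjusted p = 0.564). Tyro3 lay below the minimum of 1 FPKM and was not tested. The transcript level of a kinase does not measure its activity, so these values do not check the inhibition. Of 17 tested efferocytosis genes outside the family, Itgb3, the integrin beta 3 subunit, rose (log2 difference 1.11 ± 0.23 (SE), adjusted p = 0.0483), from 1.11, 2.23, 1.22, 3.16, 2 and 1.08 FPKM in DMSO 0 to 5 to 3.93, 4.41, 5.18 and 6.15 FPKM in UNC569 0 to 3. Mfge8, a bridging protein that links dying cells to integrins, was 24.7, 78.9, 21.3, 23.2, 85.2 and 96.2 FPKM in DMSO libraries 0 to 5 and 19.1, 19.9, 14.3 and 11.2 FPKM in UNC569 libraries 0 to 3. Its groups did not overlap, with DMSO 1, 4 and 5 far above the rest, yet it missed the threshold (log2 difference -1.45, adjusted p = 0.173).

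Genes of antigen presentation on MHC class II had the lowest median difference of the 50 gene lists. Class II molecules display peptides from engulfed material to CD4 T cells and are made by macrophages, dendritic cells and B cells. Of 10 genes listed, 6 could be tested, and 4 of these fell: H2-Ab1, H2-Aa and H2-Eb1, which encode chains of the class II molecules, and Cd74, the invariant chain that guards their groove. The 6 had a median log2 difference of -2.17, against 0.09 for all genes. H2-DMb2, H2-Oa, H2-Ob and Ciita stayed under 1 FPKM in too many libraries to be tested.

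H2-Ab1 (ENSMUSG00000073421, chr17:34257689-34269419) was 28.2, 34.8, 29.8, 21.1, 79.9 and 84.7 FPKM in DMSO libraries 0 to 5 and 5.55, 7.39, 7.55 and 9.37 FPKM in UNC569 libraries 0 to 3. It was thus 6.22-fold lower, from a mean of 46.4 ± 28.2 FPKM (SD, n = 6) to 7.46 ± 1.56 FPKM (SD, n = 4), and passed the test (log2 difference -2.30 ± 0.34 (SE), adjusted p = 0.0272). All UNC569 libraries lay below all DMSO libraries, and their mean also lay below that of sham liver with DMSO, 16.6 ± 6.10 FPKM (SD, n = 3). H2-Aa (ENSMUSG00000036594, chr17:34282744-34287823) was 17.5, 33.2, 22.1, 12.4, 58.4 and 60.8 FPKM in DMSO libraries 0 to 5 and 4.66, 4.98, 4.11 and 8.41 FPKM in UNC569 libraries 0 to 3 (log2 difference -2.24 ± 0.40 (SE), adjusted p = 0.0295). H2-Eb1 (ENSMUSG00000060586, chr17:34305867-34316674) was 10.5, 21.3, 10.9, 11.4, 47.2 and 50.8 FPKM in DMSO libraries 0 to 5 and 2.88, 4.54, 3.13 and 1.78 FPKM in UNC569 libraries 0 to 3 (log2 difference -2.43 ± 0.42 (SE), adjusted p = 0.0293). Cd74 (ENSMUSG00000024610) was 48.4, 71, 32.8, 43.4, 156 and 142 FPKM in DMSO libraries 0 to 5 and 17.2, 19.8, 13.7 and 11.9 FPKM in UNC569 libraries 0 to 3 (log2 difference -2.10 ± 0.37 (SE), adjusted p = 0.0295). In each of these, DMSO 4 and 5 were highest, with a wide gap to DMSO 0 to 3, and the groups did not overlap. H2-DMa and H2-DMb1, which load peptides, had lower UNC569 means but overlapping groups (adjusted p = 0.346 and 0.158). For all 6 genes the UNC569 mean lay under that of sham liver with DMSO, but all UNC569 libraries lay below all sham libraries in only 2 of them. UNC569 2 was the highest UNC569 library in 0 of the 6.

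**Figure D2:**
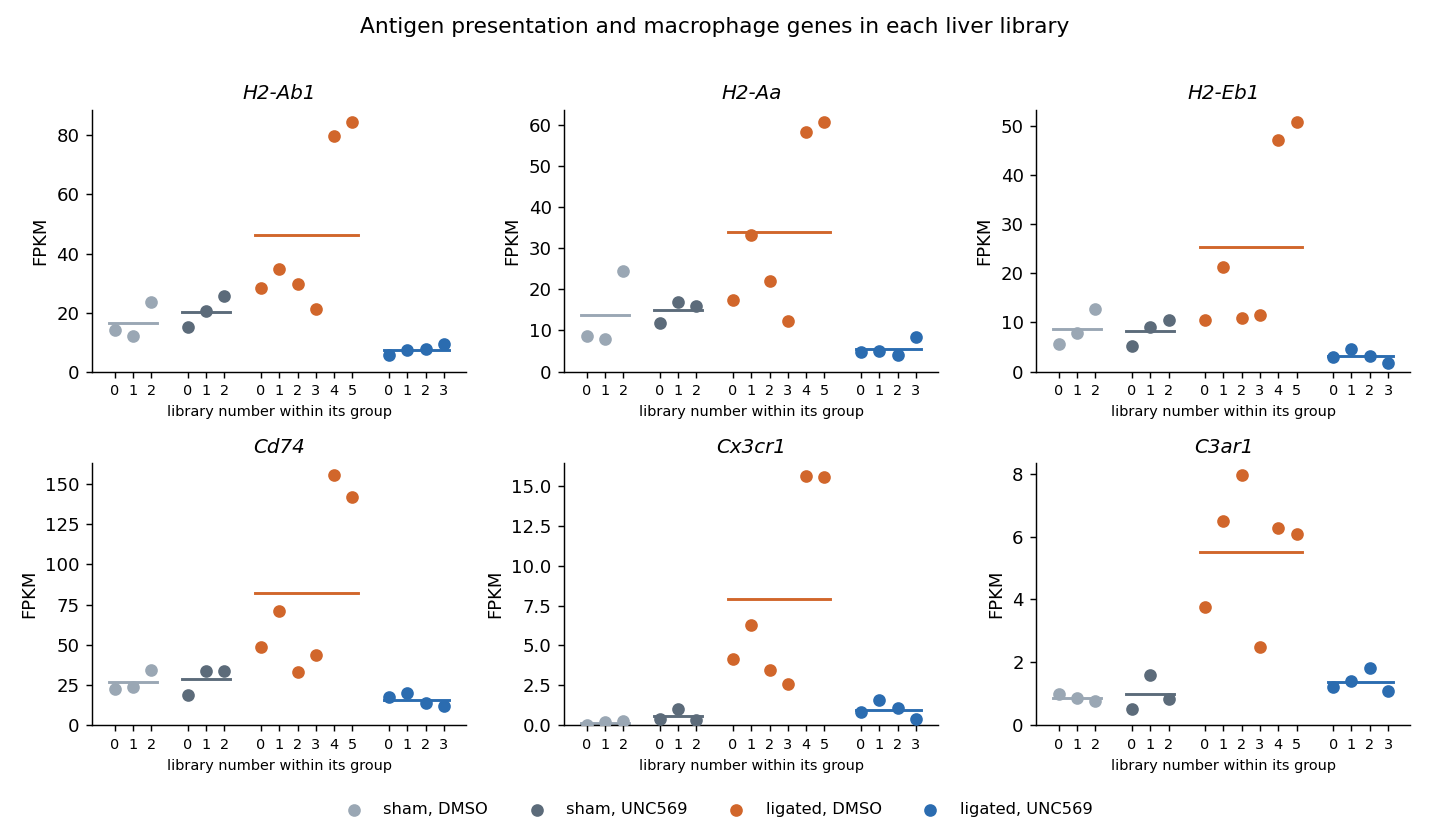
FPKM of H2-Ab1, H2-Aa, H2-Eb1, Cd74, Cx3cr1 and C3ar1 by library in the 4 liver groups, on a linear axis from 0, with 1 point per library placed by its number and a horizontal line at the group mean. In ligated liver all 4 UNC569 points lie under all 6 DMSO points, and DMSO 4 and 5 are the highest for each gene but C3ar1.

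Class II promoters share a block of short motifs, one of which is the Y box, an inverted CCAAT sequence bound by the factor NF-Y. The promoters of 2 of the genes that fell are shown because their 100 bases before the annotated start hold it. The sequences are from RefSeq on GRCm38.p6, written 5′ to 3′ on the gene's strand, with CTGATTGG in capitals.
H2-Aa, chr17:34287824-34287923, minus strand: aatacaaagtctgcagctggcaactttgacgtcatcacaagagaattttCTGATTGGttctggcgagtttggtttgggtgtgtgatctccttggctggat
H2-Eb1, chr17:34305767-34305866, plus strand: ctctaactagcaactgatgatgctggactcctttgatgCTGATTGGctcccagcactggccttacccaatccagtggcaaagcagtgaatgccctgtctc
The motif lies 51 to 44 bases before the start of H2-Aa and 62 to 55 bases before that of H2-Eb1. Searched on both strands (CTGATTGG or CCAATCAG) in the 250 bases before the start, it occurred in 3 of the 7 listed class II genes with an entry and in 1258 of 32851 entries (3.83%). The first count is of genes with any matching entry and the second of single entries, so the shares are not directly comparable. A match describes letters and shows no binding.

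Macrophage genes were lower in most UNC569 libraries, with 1 of 23 past the threshold. In bulk liver RNA, fewer cells of a type and less RNA per cell cannot be told apart. The 23 core macrophage genes had a median log2 difference of -0.79, and 13 of them had an unadjusted p under 0.05, all lower. Cx3cr1, the fractalkine receptor of monocytes and macrophages, was 4.14, 6.25, 3.49, 2.56, 15.6 and 15.6 FPKM in DMSO libraries 0 to 5 and 0.816, 1.54, 1.04 and 0.390 FPKM in UNC569 libraries 0 to 3. It fell (log2 difference -1.96 ± 0.39 (SE), adjusted p = 0.0483), with no overlap and with DMSO 4 and 5 far above the others. Lyz2, the lysozyme of myeloid cells, was 219.9, 265, 257, 168, 566 and 428 FPKM in DMSO libraries 0 to 5 and 60.7, 80.2, 366 and 75.1 FPKM in UNC569 libraries 0 to 3. UNC569 2 stood well above the other 3 UNC569 libraries, inside the DMSO range, and the gene did not pass (log2 difference -1.43, adjusted p = 0.218). The same library was the highest UNC569 library in 19 of the 23 genes, and the library averages show it: the mean log2(FPKM + 1) level over the 23 was 4.08, 4.45, 4.15, 3.80, 4.97 and 4.85 in DMSO 0 to 5 and 3.13, 3.32, 4.44 and 3.30 in UNC569 0 to 3. Over the 6 class II genes that mean was 3.80, 4.19, 3.67, 3.33, 5.32 and 5.29 in DMSO 0 to 5 and 2.47, 2.33, 2.24 and 2.48 in UNC569 0 to 3. UNC569 2 thus lay within the DMSO range for the macrophage genes and lowest of all 10 libraries for the class II genes. In UNC569 0, 1 and 3 both averages lay below those of every DMSO library. The part of macrophage content in the class II difference was not tested. UNC569 2 also had the highest mean over the tested neutrophil genes among the UNC569 libraries (2.66, 2.74, 4.63 and 3.34 in UNC569 0 to 3). The part of neutrophils in its macrophage average was not tested. Ccr2, a monocyte chemokine receptor (log2 difference -1.43, adjusted p = 0.16), Ctss, a cathepsin of antigen-presenting cells (log2 difference -1.06, adjusted p = 0.139), and Cd68, a lysosomal protein of macrophages (log2 difference -0.90, adjusted p = 0.201), did not pass.

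Genes of Kupffer cells, the resident macrophages of the liver, gave few calls: of 12 tested, 0 passed after adjustment and 1 was lower at an unadjusted p under 0.05, with a median of -0.38. Clec4f, a lectin of Kupffer cells, was 76.5, 31.2, 78.2, 62.3, 69.2 and 46.8 FPKM in DMSO libraries 0 to 5 and 32.8, 29.7, 68 and 34.3 FPKM in UNC569 libraries 0 to 3, with overlapping groups (log2 difference -0.56, adjusted p = 0.549). Among 15 genes of the lipid-associated macrophages found in scars, 7 were lower and 1 higher at an unadjusted p under 0.05, and 0 passed after adjustment. Trem2, a lipid-sensing receptor of those cells, was 7.14, 16.6, 2.77, 3.35, 23.6 and 19.96 FPKM in DMSO libraries 0 to 5 and 3.62, 2.86, 1.10 and 1.22 FPKM in UNC569 libraries 0 to 3, and DMSO 1, 4 and 5 held its highest values (log2 difference -1.77, adjusted p = 0.211). Gpnmb was listed at 0 in all 6 sham libraries, at 3.79, 15.4, 3.64, 1.03, 12.7 and 11 FPKM in DMSO 0 to 5 and at 2.42, 1.52, 0.191 and 0.686 FPKM in UNC569 0 to 3 (log2 difference -1.79, adjusted p = 0.133). UNC569 2, the richest of the UNC569 libraries in Lyz2, was the lowest of them for both Trem2 and Gpnmb, by a small gap for Trem2. The list as a whole went the other way. UNC569 2 was the highest UNC569 library in 7 of the 15 genes. The mean log2(FPKM + 1) level over the 15 was 5.38, 5.44, 5.56 and 5.11 in UNC569 0 to 3.

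Receptors of innate immunity fell in 2 cases. C3ar1, the receptor for complement fragment C3a, was 3.75, 6.49, 7.96, 2.49, 6.29 and 6.08 FPKM in DMSO libraries 0 to 5 and 1.20, 1.42, 1.81 and 1.09 FPKM in UNC569 libraries 0 to 3 (log2 difference -1.39 ± 0.24 (SE), adjusted p = 0.0293). Clec7a, the fungal-glucan receptor dectin-1, was 14.3, 13.7, 25.7, 4.46, 15.6 and 12.4 FPKM in DMSO libraries 0 to 5 and 2.13, 3.77, 2.08 and 2.06 FPKM in UNC569 libraries 0 to 3 (log2 difference -2.02 ± 0.37 (SE), adjusted p = 0.0371). In both, DMSO 3 was the lowest DMSO library and still lay above every UNC569 library. The annotation (GENCODE vM21) types Clec7a as a polymorphic pseudogene. C5ar1, the receptor for C5a, was separated as well without passing (log2 difference -1.08, adjusted p = 0.139), and C3ar1 was the only one of 23 tested complement genes to pass. Chemokines and their receptors had 13 of 19 genes lower at an unadjusted p under 0.05 and 0 past the adjusted threshold, with a median of -1.01. Ccl2, which draws monocytes from blood, was 5.03, 14.6, 5.04, 1.10, 28.8 and 38 FPKM in DMSO libraries 0 to 5 and 1.33, 1.48, 2.54 and 0.446 FPKM in UNC569 libraries 0 to 3, and DMSO 3 alone reached down into the UNC569 range (log2 difference -2.18, adjusted p = 0.157). Cxcr4 and Cxcl16 were separated between groups at log2 differences of -1.01 and -1.16 (adjusted p = 0.126 and 0.139).

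Neutrophil genes had higher values in UNC569 2. Of 9 tested, 2 were higher and 0 lower at an unadjusted p under 0.05, 0 passed after adjustment, and the median was 0.81. S100a8, an alarmin of neutrophils, was 18.7, 13, 36, 3.63, 36.9 and 15.3 FPKM in DMSO libraries 0 to 5 and 40.3, 28.4, 307 and 75.4 FPKM in UNC569 libraries 0 to 3. UNC569 2 was far above every other ligated library, and it was highest of the 4 in 8 of the 9 genes. Without that library the median dropped to 0.29. Genes of T, NK and B cells gave 1 of 8 lower at an unadjusted p under 0.05 and 0 past the adjusted threshold, and interferon-stimulated genes 3 of 24 lower and 0 past it. Cd79b, part of the B cell receptor, was 0.987, 1.14, 0.228, 0.742, 1.70 and 0.978 FPKM in DMSO libraries 0 to 5 and 0, 0, 1.05 and 0 FPKM in UNC569 libraries 0 to 3 (log2 difference -0.67, adjusted p = 0.322), and its part in the class II difference was not tested.

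Matrix genes differed widely among the DMSO livers. Of 25 interstitial matrix genes tested, 14 were lower and 1 higher at an unadjusted p under 0.05, but only Thbs1 passed after adjustment, and the median was -0.64. Col1a1, the alpha 1 chain of type I collagen (ENSMUSG00000001506, chr11:94936224-94953042), was 3.04, 12.7, 2.44, 3.71, 18 and 13.5 FPKM in DMSO libraries 0 to 5 and 2.70, 3.86, 2.44 and 0.592 FPKM in UNC569 libraries 0 to 3. Col1a2, its partner chain, was 4.16, 14.8, 4.08, 5.14, 17.3 and 15.3 FPKM in DMSO libraries 0 to 5 and 3.16, 4.61, 2.73 and 1.68 FPKM in UNC569 libraries 0 to 3. Col3a1, type III collagen, was 2.67, 17.3, 2.46, 3.44, 19.2 and 16.2 FPKM in DMSO libraries 0 to 5 and 2.02, 2.60, 3.44 and 0.564 FPKM in UNC569 libraries 0 to 3. In all 3 genes DMSO 1, 4 and 5 were several times higher than DMSO 0, 2 and 3, whose range some UNC569 libraries reached. UNC569 3 lay below every DMSO library in all 3 genes. UNC569 0 did so for Col1a2 and Col3a1, and UNC569 2 for Col1a2. None of the 3 passed: the log2 difference was -1.33 ± 0.49 (SE) for Col1a1 (adjusted p = 0.314), -1.29 ± 0.38 (SE) for Col1a2 (adjusted p = 0.187) and -1.52 ± 0.52 (SE) for Col3a1 (adjusted p = 0.27).

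The same 3 DMSO libraries held the highest values in 20 of the 25 matrix genes. They were singled out by matrix genes in these same data, the collagens above among them, so that count is no independent support. The mean log2(FPKM + 1) level over the 25 genes was 2.23, 3.30, 2.07, 2.28, 3.38 and 3.22 in DMSO 0 to 5 and 2.06, 2.40, 2.31 and 1.56 in UNC569 0 to 3. Sham libraries lay between 1.64 and 2.24, so DMSO 0 and 2 and UNC569 0 sat inside the sham range, DMSO 3 and UNC569 1 and 2 just above it, and UNC569 3 below all 6 sham libraries. In 18 of the 25 genes the UNC569 mean lay between those of sham and ligated liver with DMSO. DMSO 1, 4 and 5 were also the 3 highest DMSO libraries in 12 of 15 activated stellate cell genes, 14 of 21 cholangiocyte genes, 12 of 23 core macrophage genes and 4 of 6 class II genes, but in 0 of 12 Kupffer cell genes. The share of all genes with that order was not counted. What separates these libraries is not given in the labels used here and was not tested.

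**Figure D3:**
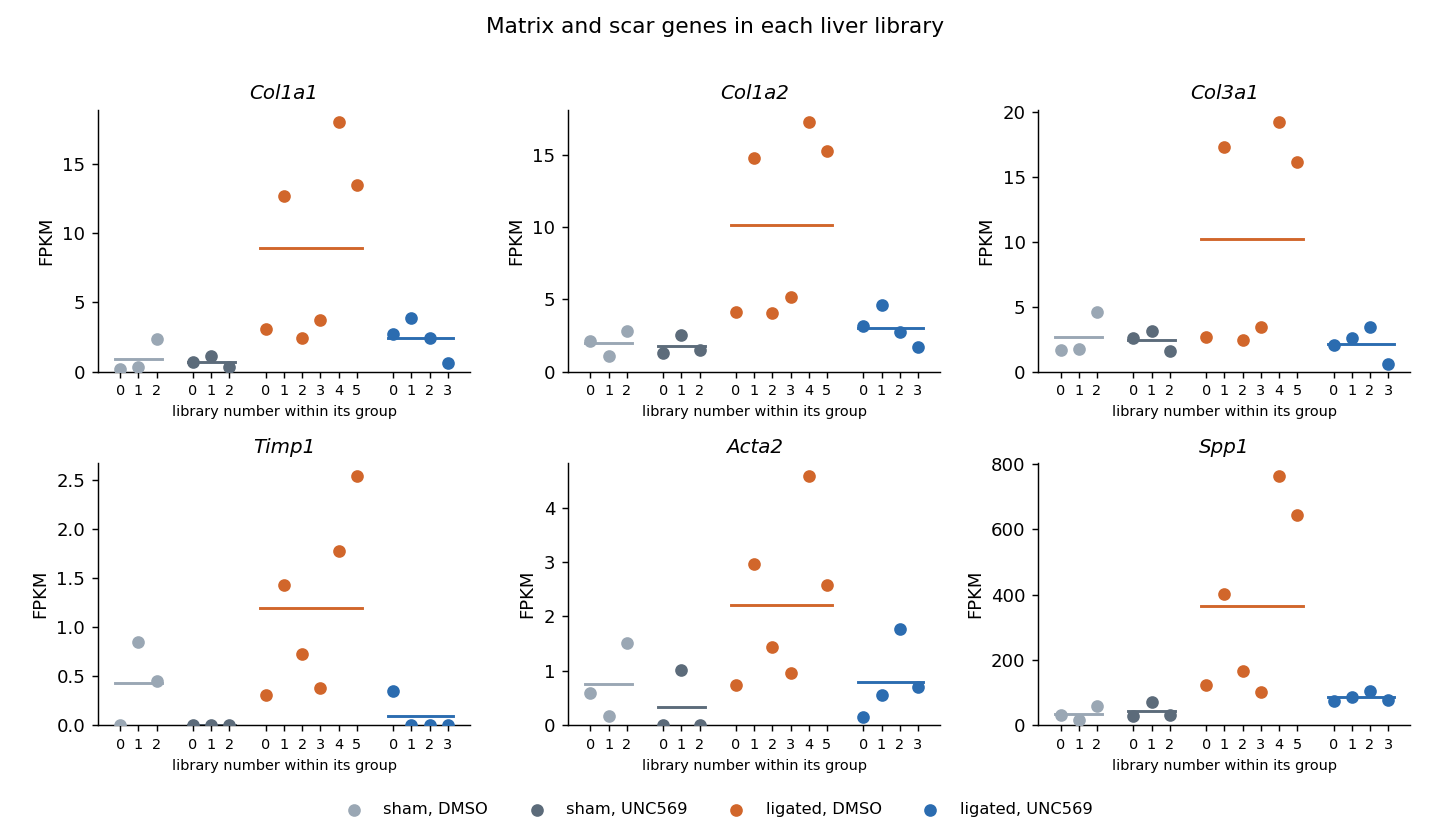
FPKM of Col1a1, Col1a2, Col3a1, Timp1, Acta2 and Spp1 by library in the 4 liver groups, on linear axes from 0, with 1 point per library and a horizontal line at the group mean. For the 3 collagens DMSO 1, 4 and 5 lie above DMSO 0, 2 and 3, whose range some UNC569 libraries reach. UNC569 3 lies below every DMSO library in each of the 3.

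Other scar genes followed the same libraries. Timp1, an inhibitor of matrix metalloproteases, was 0.303, 1.43, 0.724, 0.381, 1.78 and 2.54 FPKM in DMSO libraries 0 to 5 and 0.349, 0, 0 and 0 FPKM in UNC569 libraries 0 to 3 (log2 difference -0.93, adjusted p = 0.204). Acta2, the smooth muscle actin of myofibroblasts, was 0.734, 2.97, 1.45, 0.950, 4.59 and 2.58 FPKM in DMSO libraries 0 to 5 and 0.140, 0.561, 1.77 and 0.707 FPKM in UNC569 libraries 0 to 3 (log2 difference -0.79, adjusted p = 0.414). Spp1, osteopontin, made by bile duct cells and scar macrophages, was 123, 401, 164, 101, 765 and 644 FPKM in DMSO libraries 0 to 5 and 73.6, 85.1, 104 and 75.4 FPKM in UNC569 libraries 0 to 3 (log2 difference -1.69, adjusted p = 0.222). Timp1 was listed at 0 in UNC569 1, 2 and 3, and Spp1 overlapped only at the edge, where UNC569 2 was just above DMSO 3. Activated stellate cell genes gave 5 of 15 lower at an unadjusted p under 0.05 and 0 past the adjusted threshold (median -0.65). UNC569 2 was the highest UNC569 library in 11 of the 15. For quiescent stellate cells 2 of 13 genes were higher at an unadjusted p under 0.05: Ecm1, which restrains activation of latent TGF-beta (log2 difference 1.13, adjusted p = 0.0703), and Vipr1, a neuropeptide receptor (log2 difference 1.54, adjusted p = 0.0837). Both were separated between groups without passing. Fn1, fibronectin, which hepatocytes secrete into plasma, was separated in the opposite direction to the collagens (log2 difference 0.48, adjusted p = 0.346).

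Ccn1 and Thbs1 were among the matrix and TGF-beta genes that fell. Ccn1, a matrix-bound signalling protein (ENSMUSG00000028195, chr3:145646976-145649981), was 24.8, 23.3, 13.2, 4.07, 40.3 and 44.9 FPKM in DMSO libraries 0 to 5 and 3.09, 3.15, 2.67 and 2.44 FPKM in UNC569 libraries 0 to 3 (log2 difference -2.46 ± 0.50 (SE), adjusted p = 0.0483). Thbs1, thrombospondin-1, which can activate latent TGF-beta (ENSMUSG00000040152, chr2:118111876-118127133), was 2.48, 5.52, 3.45, 2.48, 7.70 and 8.31 FPKM in DMSO libraries 0 to 5 and 1.03, 1.45, 0.273 and 0.523 FPKM in UNC569 libraries 0 to 3 (log2 difference -1.65 ± 0.29 (SE), adjusted p = 0.0295). Both were separated, and the margin was thin for Ccn1, where DMSO 3 lay close above UNC569 1. Thbs1 was listed with the interstitial matrix. Of the 19 tested TGF-beta ligands, receptors and targets, 2 passed, Ccn1 among them, 6 were lower and 2 higher at an unadjusted p under 0.05, and the median was -0.28. Plat and Plau, the plasminogen activators, had log2 differences of -0.89 and -0.97 (adjusted p = 0.129 and 0.187).

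Bile duct cells multiply after ligation, and their genes were among the lower groups: of 21 tested, 15 were lower and 0 higher at an unadjusted p under 0.05, 5 were separated, and 1 passed after adjustment, with a median of -0.98. Cd24a, a surface protein of ductular and progenitor cells (ENSMUSG00000047139, chr10:43578284-43584265), was 14.3, 22.6, 17.4, 12.1, 27.6 and 43.2 FPKM in DMSO libraries 0 to 5 and 3.44, 5.21, 5.13 and 5.06 FPKM in UNC569 libraries 0 to 3. It fell in all UNC569 libraries below all DMSO libraries (log2 difference -1.95 ± 0.32 (SE), adjusted p = 0.0293). Cldn4, a tight junction protein, was 13.6, 16.7, 9.86, 2.76, 17.7 and 42.5 FPKM in DMSO libraries 0 to 5 and 3.55, 4, 0.852 and 1.79 FPKM in UNC569 libraries 0 to 3 (log2 difference -2.12, adjusted p = 0.0753). The mean log2(FPKM + 1) level over the 21 genes was 3.23, 3.75, 2.92, 3.00, 4.06 and 4.38 in DMSO 0 to 5 and 2.62, 2.71, 2.59 and 2.53 in UNC569 0 to 3. Every UNC569 library lay below every DMSO library in that average, and in 17 of the 21 genes the UNC569 mean lay between sham and ligated liver with DMSO.

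Immediate early genes, switched on within minutes of a stimulus, had 7 of 17 members lower at an unadjusted p under 0.05 and 1 that passed. Fos, a subunit of the AP-1 factor (ENSMUSG00000021250, chr12:85473890-85477273), was 12.3, 11.2, 9.995, 37.6, 45 and 25.7 FPKM in DMSO libraries 0 to 5 and 2.10, 2.25, 2.55 and 3 FPKM in UNC569 libraries 0 to 3 (log2 difference -2.60 ± 0.47 (SE), adjusted p = 0.0295). Its UNC569 values were close together, under the lowest DMSO value. In sham liver Fos was 16.2, 2.60 and 2.48 FPKM with DMSO and 0.116, 1.08 and 1.09 FPKM with UNC569, a log2 difference of -1.82 with an adjusted p of 1. Jun (log2 difference -1.26, adjusted p = 0.194), Atf3 (log2 difference -1.34, adjusted p = 0.185) and Fosb (log2 difference -1.03, adjusted p = 0.217) did not pass. In sham liver 5 of the 17 genes had an unadjusted p under 0.05 by limma in either direction, against 241 of 12986 genes tested. The list median there was -0.30.

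Among the other genes that fell were regulators of signalling and protein turnover. Rgs16, which shortens G protein signals (ENSMUSG00000026475, chr1:153740349-153745468), was 20.3, 15.2, 16.8, 46.4, 36.9 and 21.5 FPKM in DMSO libraries 0 to 5 and 3.67, 4.80, 4.28 and 6.15 FPKM in UNC569 libraries 0 to 3 (log2 difference -2.15 ± 0.33 (SE), adjusted p = 0.0272). Ubd, a ubiquitin-like tag induced by inflammatory cytokines (ENSMUSG00000035186, chr17:37193892-37196095), was 9.29, 49.9, 9.68, 10.3, 28.1 and 34.5 FPKM in DMSO libraries 0 to 5 and 2.47, 1.88, 7.28 and 3.51 FPKM in UNC569 libraries 0 to 3 (log2 difference -2.19 ± 0.44 (SE), adjusted p = 0.0483). DMSO 3 and 4 were highest for Rgs16, whereas DMSO 1, 4 and 5 were highest for Ubd. The order with DMSO 1, 4 and 5 on top held in 15 of the 25 genes that fell, and DMSO 4 or 5 was highest in 19. The share of all genes with these orders was not counted. Egln3, a hydroxylase that marks hypoxia-inducible factor for decay, was 13.1, 26.3, 11.9, 10.5, 14.9 and 18.7 FPKM in DMSO libraries 0 to 5 and 5.66, 6.47, 3.75 and 8.66 FPKM in UNC569 libraries 0 to 3 (log2 difference -1.23 ± 0.25 (SE), adjusted p = 0.0483). Its ligated DMSO values resembled those of sham liver with DMSO, 12.9, 16 and 21.9 FPKM, and the UNC569 libraries lay below both. Cib3, a calcium-binding protein, was 20.6, 25.9, 13.3, 13.5, 21.3 and 32.1 FPKM in DMSO libraries 0 to 5 and 8.07, 9.33, 1.86 and 4.61 FPKM in UNC569 libraries 0 to 3 (log2 difference -1.76 ± 0.34 (SE), adjusted p = 0.0475), and reached at most 1.44 FPKM in sham liver. The other falls were Arl11, D930048N14Rik, Gm26735, Htra1, Nrep, Sfxn3, Slc29a3, Slc37a2 and Sucnr1. Genes outside the rule for named genes, Egln3, Cib3 and Itgb3 among them, were named because they passed the test.

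The 16 genes that rose include hepatocyte products and signalling genes. Fgg, the gamma chain of the clotting protein fibrinogen (ENSMUSG00000033860, chr3:83007724-83015049), was 949, 1589, 1142, 1813, 1068 and 1914 FPKM in DMSO libraries 0 to 5 and 3016, 3399, 2702 and 4218 FPKM in UNC569 libraries 0 to 3. It rose (log2 difference 1.27 ± 0.26 (SE), adjusted p = 0.0483), a 2.36-fold higher mean, with no overlap. Its neighbours on chromosome 3, Fga and Fgb, which encode the other chains, had differences of like size and were separated as well, without passing (log2 differences 1.27 and 1.26, adjusted p = 0.0732 and 0.0753). Fgg was the only one of 25 acute phase genes to pass, with 3 higher and 0 lower at an unadjusted p under 0.05 and a median of 0.61. The acute phase proteins Hp and Saa1 had overlapping groups (adjusted p = 0.792 and 0.942), and UNC569 2 was highest of the 10 libraries in both.

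Nfil3, a transcriptional repressor tied to the circadian clock (ENSMUSG00000056749, chr13:52967209-52981073), was 24.7, 9.06, 14.1, 28.2, 9.89 and 18.2 FPKM in DMSO libraries 0 to 5 and 86.3, 66.2, 31 and 77 FPKM in UNC569 libraries 0 to 3 (log2 difference 1.86 ± 0.35 (SE), adjusted p = 0.0409). Il1r1, the signalling receptor for interleukin-1 (ENSMUSG00000026072, chr1:40225080-40317257), was 18.4, 36.1, 29.5, 35.4, 23.9 and 38.7 FPKM in DMSO libraries 0 to 5 and 87.7, 89.6, 48.8 and 138 FPKM in UNC569 libraries 0 to 3 (log2 difference 1.51 ± 0.26 (SE), adjusted p = 0.0293). In both, UNC569 2 was the lowest UNC569 library and lay just above the highest DMSO library. Nfil3 was the only one of 16 clock genes to pass, and Il1r1 the only one of 21 genes of NF-kB and cytokine inflammation, where 4 others were lower and 1 other was higher at an unadjusted p under 0.05. The other higher gene was Tnfrsf1a, a receptor for tumour necrosis factor, which was also separated between groups (log2 difference 0.54, adjusted p = 0.375). Zbtb16, a zinc finger factor responsive to glucocorticoids (ENSMUSG00000066687, chr9:48654297-48836222), was 7.61, 10.7, 5.94, 7.88, 6.87 and 6.47 FPKM in DMSO libraries 0 to 5 and 16.6, 17.5, 15.7 and 21 FPKM in UNC569 libraries 0 to 3 (log2 difference 1.14 ± 0.22 (SE), adjusted p = 0.0475).

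Cux2, a transcription factor that is female-biased in mouse liver (ENSMUSG00000042589, chr5:121856366-122050102), was 8.46, 7.53, 6.06, 6.96, 0.294 and 6.22 FPKM in DMSO libraries 0 to 5 and 26.1, 18.9, 21.9 and 24.7 FPKM in UNC569 libraries 0 to 3 (log2 difference 2.01 ± 0.41 (SE), adjusted p = 0.0483). DMSO 4 was far below the other DMSO libraries, and all UNC569 libraries were above all DMSO libraries. The table holds a second identifier named Cux2, ENSMUSG00000072641, so reads may have been split between the entries. The groups of the second entry overlapped, but it was higher with UNC569 too. Its log2 difference ran from 1.85 to 2.99 over 17 alternative settings, and it passed in 2 of them. The Y-linked gene Ddx3y was 14.5, 13.6, 33.7, 18.3, 6.71 and 10.5 FPKM in DMSO libraries 0 to 5 and 16.1, 18.7, 12.1 and 25.2 FPKM in UNC569 libraries 0 to 3, with overlapping groups. Slc10a6, a transporter of sulfated steroids and other organic anions, was 0.0995, 1.85, 1.52, 0.541, 1.73 and 1.19 FPKM in DMSO libraries 0 to 5 and 3.98, 5.30, 4.06 and 5.24 FPKM in UNC569 libraries 0 to 3 (log2 difference 1.46 ± 0.25 (SE), adjusted p = 0.0293) and reached at most 0.242 FPKM in sham liver. Arl13b, a GTPase of the primary cilium (log2 difference 1.54 ± 0.26 (SE), adjusted p = 0.0293), Dnajc12, a co-chaperone (log2 difference 1.40 ± 0.28 (SE), adjusted p = 0.0483), B3galt1, a galactosyltransferase (log2 difference 1.35 ± 0.27 (SE), adjusted p = 0.0483), and Fam222a (log2 difference 1.72 ± 0.28 (SE), adjusted p = 0.0293) rose too. The remaining rises were Ccno, Ddx28, Slc37a1 and the processed pseudogenes Gm6493 and Rps16-ps2, whose reads may come from their parent genes. Exons of 8 of the 41 genes overlap a gene on the other strand (Cx3cr1, Ddx28, Fgg, Gm26735, Rgs16, Slc37a1, Slc37a2 and Thbs1), and the library kit named in the labels does not mark strand, so their reads cannot be assigned with certainty.

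**Figure D4:**
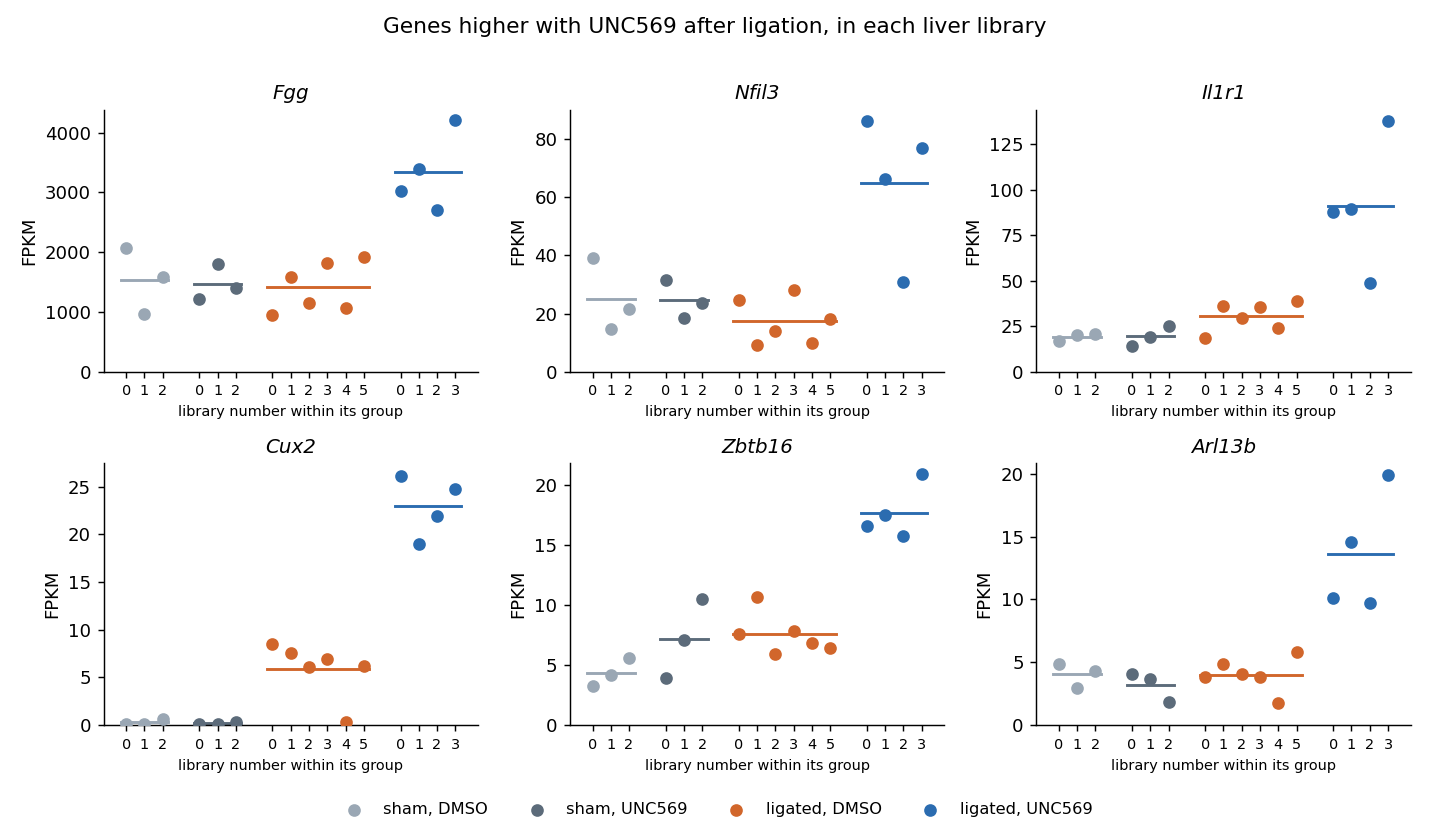
FPKM by library of Fgg, Nfil3, Il1r1, Cux2, Zbtb16 and Arl13b in the 4 liver groups, on linear axes from 0, with 1 point per library and a horizontal line at the group mean. In each panel all 4 UNC569 points lie above all 6 ligated DMSO points.

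Hepatocyte gene lists had 0 genes past the adjusted threshold in the zonal and core groups, and most of their members at an unadjusted p under 0.05 were higher. Of 20 genes of hepatocyte secretion and core functions, 5 were higher and 0 lower at an unadjusted p under 0.05, and 3 were separated with higher values (median 0.23). Of 15 periportal genes, 7 were higher and 2 lower at an unadjusted p under 0.05 (median 0.63), and of 16 pericentral genes 3 and 2 (median 0.12). Asl, an enzyme of the urea cycle, was 111, 105, 57, 225, 60.6 and 141 FPKM in DMSO libraries 0 to 5 and 302, 279, 135 and 266 FPKM in UNC569 libraries 0 to 3 (log2 difference 1.16, adjusted p = 0.153). Tat, which breaks down tyrosine, was separated and higher without passing (log2 difference 1.41, adjusted p = 0.115). Cholesterol genes had 4 of 21 higher at an unadjusted p under 0.05 (median 0.36), among them Srebf2, the master factor of the pathway, which was separated between groups (log2 difference 0.56, adjusted p = 0.158). Of the 20 genes of bile acid synthesis and its feedback and the 25 of fatty acid oxidation and ketogenesis, 0 reached an unadjusted p under 0.05. Of the 50 lists, 12 had a member past the adjusted threshold, and the medians of the other 38 ran from -1.01 for chemokines to 0.81 for neutrophils. A total of 33 list medians lay under that of all genes.

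**Figure D5:**
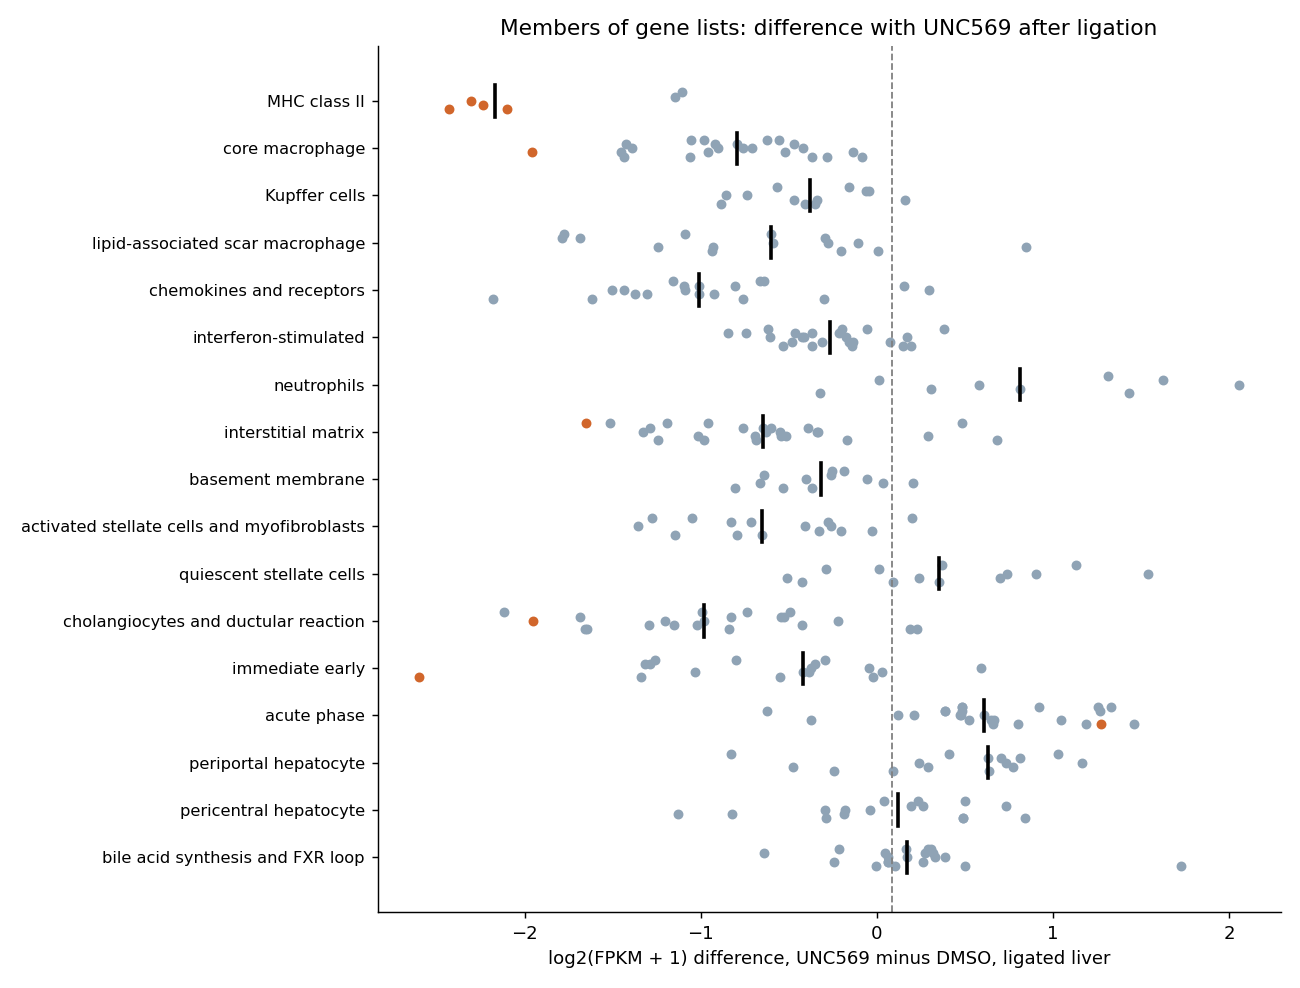
Log2 difference, UNC569 minus DMSO in ligated liver, for each tested member of a selection of the gene lists, with 1 grey point per gene, orange for adjusted p under 0.05 and a black bar at the list median. The dashed line is the median of all genes, 0.09, and the MHC class II bar lies lowest, at -2.17.

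In sham livers UNC569 moved 0 genes past the threshold by limma, with 241 at an unadjusted p under 0.05. Of the 41 genes called in ligated liver, 1 (Fos) had an unadjusted p under 0.05 in sham liver. The difference between the ligated and the sham response, tested as an interaction, also had 0 genes past the threshold by limma and 610 at an unadjusted p under 0.05, with a smallest adjusted p of 0.644. H2-Ab1 was 13.9, 12.2 and 23.5 FPKM in sham liver with DMSO and 15.2, 20.4 and 25.5 FPKM with UNC569, and its response differed by -2.61 ± 0.56 (SE) between ligated and sham liver (adjusted p = 0.644). The same quantity was -2.34 for Rgs16 and 1.91 for B3galt1 (adjusted p = 0.644 and 0.644). The processed pseudogenes Gm12396 and Gm6493 were the other 2 genes of smallest p. It was therefore not shown that the response of any gene was particular to ligated liver.

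The class II genes were read in 2 other injured organs of the series, each normalised in its own table. In the kidney with an obstructed ureter, with 4 DMSO and 7 UNC569 libraries, 199 of 15338 genes passed (1.30%) and 2829 had an unadjusted p under 0.05 (18.4%). H2-Ab1 was 1303 ± 266 FPKM (SD) with DMSO there and 856 ± 89.7 FPKM (SD) with UNC569, a log2 difference of -0.59 (adjusted p = 0.114). Cd74 differed by -0.70, H2-Eb1 by -0.58 and H2-Aa by -0.52 (adjusted p = 0.113, 0.15 and 0.157). In the bleomycin-injured lung, with 6 libraries a group, 0 of 15935 genes passed by limma and 843 had an unadjusted p under 0.05 (5.29%). The log2 differences there were -0.39 for H2-Ab1, -0.39 for Cd74, -0.47 for H2-Eb1 and -0.53 for H2-Aa, each with an adjusted p of 0.867. All 4 genes thus had lower UNC569 means in all 3 organs and passed the test in the liver alone, and the size of the difference was not tested between organs. Of the 41 genes, 37 could be tested in kidney and 36 in lung, and 0 passed in either. At an unadjusted p under 0.05 there were 12 in kidney, 10 of them with the sign seen in liver, and 8 in lung, all 8 with that sign.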

How the data were processed

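Liver RNA was made into unstranded TruSeq v2 libraries and sequenced in reads of 100 bases, per the labels' protocols. The submitters' processing notes name the builds mm10 and hg38 and, without versions, STAR, Trim Galore, FastQC and edgeR. The authors deposited FPKM values per gene and library, and the program that made them is not given in the sources used here. The values were tested for steps of whole reads, which could not be recovered: the commonest ratio between 2 libraries held 4.55 to 28.6% of low values. Each pair of libraries had only 7 to 46 such values, so few that the check could miss steps. Of 38277 identifiers, 36342 (94.9%) matched GENCODE vM21 on GRCm38, which gave the coordinates.

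Genes with at least 1 FPKM in at least 3 of the 16 libraries were kept, transformed as log2(FPKM + 1) and fitted with limma 3.58.1 in R 4.3.3 (trend, 4 groups in 1 fit, 12 residual degrees of freedom), with Benjamini-Hochberg adjustment over 12986 genes and a threshold of 0.05. The pseudocount of 1 understates the fold of genes with low FPKM. The ratios of group means given as folds are of FPKM without it. The procedure was tested on simulated data. Kidney and lung tables were fitted alone. Alternatives were a pseudocount of 0.1, other filters, median-of-ratios scaling, robust variances, the ligated groups alone and each library left out in turn.

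Genes named are the TAM family, the 10 largest rises and falls past the threshold with separated groups and a mean of at least 5 FPKM, up to 4 members of smallest p and up to 2 of highest level in each list described, the 5 genes of smallest p for the difference between ligated and sham liver, and 6 scar genes. The members and the 50 gene lists (868 genes, 743 tested) were chosen with earlier results of these data known. Promoter sequences are those of RefSeq. A few genes that the rule names are not reported here.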

Additional observations from a re-analysis of the deposited data

Results flagged for a closer look

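Among 106 sets of values, 1 gene in 1 ligated group each, 7 had a highest or lowest library whose gap to the next passed Dixon's 95% critical value, and chance gives about 5 in 100. Clec7a was 3.77 FPKM in UNC569 1, with 2.13 FPKM in the next library. Cd24a was 3.44 FPKM in UNC569 0, with 5.06 FPKM in the nearest, and D930048N14Rik was 2.49 FPKM in UNC569 2, with 1.20 FPKM in the nearest. Timp1 was 0.349 FPKM in UNC569 0 and listed at 0 in the other 3 UNC569 libraries. Gm12396 was listed at 0 in UNC569 3, with 1.11 FPKM in the nearest. Of the DMSO libraries, Cux2 was 0.294 FPKM in DMSO 4, with 6.06 FPKM in the nearest, and Rps16-ps2 was 17.5 FPKM in DMSO 5, with 13.0 FPKM in the nearest. None of these gaps bridges the space between the 2 groups for the genes that passed the test.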

How the results depend on the processing

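The direction of the 41 genes held in all alternatives run in which they were tested, each time at an unadjusted p under 0.05, while the number past the adjusted threshold did not hold. The 41 genes were picked for small p in these libraries and had separated groups, so their held direction is no separate evidence. Leaving out each ligated library in turn gave between 0 and 69 genes higher and between 0 and 74 lower. A pseudocount of 0.1 gave 4 higher and 11 lower, no filter on low values gave 1 and 0, and the ligated groups alone gave 0 and 0. Median-of-ratios scaling gave 10 higher. Leaving out DMSO 2 and UNC569 2 together, an alternative chosen after seeing the data, gave 85 higher and 112 lower, with 35 of the 41 among them. With no filter, 2 genes were higher in sham liver and 1 was lower for the difference between ligated and sham liver. In kidney the higher genes numbered 7 with a pseudocount of 0.1, 25 with no filter and 74 with median-of-ratios scaling, and between 0 and 79 with 1 library left out. The lower genes in kidney numbered 39 with a pseudocount of 0.1 and between 7 and 268 with 1 library left out. In lung 1 gene was lower without 1 UNC569 library and 0 otherwise with 1 library left out. The median of the skeletal muscle list could not be formed without DMSO 2 or without DMSO 3, where no member was tested. The causes of these changes were not tested. No paired analysis was possible because the column numbers in the table start at 0 and are not the replicate numbers of the labels. Depth could not be read from FPKM, so no floor is given for values listed at 0, and 12 of the 41 genes had a mean under 5 FPKM in both ligated groups.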

Other observations

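Acute phase transcripts divided the sham livers without regard to the inhibitor. Saa1, serum amyloid A1, was 26497, 904 and 49.2 FPKM in the 3 sham livers with DMSO and 1079, 25556 and 63.2 FPKM in the 3 with UNC569, so that 1 library of each group was far above the other 2. In ligated liver it was 111, 2224, 106, 5277, 2876 and 4836 FPKM in DMSO libraries 0 to 5 and 948, 599.7, 10963 and 960.3 FPKM in UNC569 libraries 0 to 3. Lcn2, lipocalin 2, was 526, 21.6 and 3.10 FPKM in sham liver with DMSO and 10.9, 1325 and 0.982 FPKM with UNC569, with the same 2 libraries high. Major urinary proteins, which male hepatocytes secrete, were lower in every ligated library than in every sham library for Mup3 and Mup20. Mup20 was 371, 4097 and 2449.8 FPKM in sham liver with DMSO and 59.2, 50.03, 87.6, 204, 141 and 118 FPKM in DMSO libraries 0 to 5 and 19.6, 21.1, 25.6 and 17.8 FPKM in UNC569 libraries 0 to 3 in ligated liver. Its ligated groups did not overlap, yet it did not pass the test (log2 difference -2.18, adjusted p = 0.132). Mup3 overlapped between the ligated groups, with 5.97, 5.07, 6.90, 16, 5.86 and 4.08 FPKM in DMSO libraries 0 to 5 and 7.08, 1.32, 56.1 and 5.73 FPKM in UNC569 libraries 0 to 3. The Mup and Saa genes have near-identical copies, so the split of reads among them is uncertain.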
